A study of Mus musculus with 6 samples.

Results

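The genes described here are 39 core components of the spliceosome, the machine that removes introns from RNA transcripts. They were taken as a fixed list and matched by gene symbol to the probe sets of exon arrays. Of the 39, 36 were measured, with 571 of 577 probe sets above the signal minimum, among 15045 genes and 191663 probe sets in all. Snrpb, Snrpf and Snrpg were matched to no probe set of a single symbol and were not analysed here. The livers came from 3 male mice homozygous for a Dhx32 mutation, labelled Dhx32-/-, and from 3 male control mice whose strain is labelled wild type, all aged 6 to 8 weeks. The liver was snap frozen, and RNA of each mouse was hybridised to 1 array that carries probe sets for single exons. With exon-level probes the design compares both the level of a transcript and the use of its exons between the genotypes. Dhx32 encodes a protein of the DEAH-box helicase family. The labels name neither the kind of Dhx32 mutation nor the litters, and no genetic background beyond the words above.

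The spliceosome is built anew on every intron from small nuclear ribonucleoproteins (snRNPs) and many further proteins. The U1 snRNP binds the 5′ splice site, SF1 and the U2AF dimer mark the branch point and the 3′ splice site, and the U2 snRNP then pairs with the branch point. The U4/U6.U5 tri-snRNP and the Prp19 complex join next, RNA helicases of the DEAD and DEAH families drive the rearrangements, and late factors guide exon joining. Because nearly every liver transcript is spliced, these genes are active in hepatocytes and in all other liver cells.

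Values are log2 signals, so a difference of 1 means a doubling. A probe set was used where a group mean reached 3, and a gene's value is the mean over its probe sets. Dhx32 itself read 6.35, 6.60 and 7.04 in the mutant livers, against 8.28, 8.85 and 8.62 in the control livers. All mutants lay below all controls, by 1.92 on average (SE 0.23), which did not pass in limma over all genes (adjusted p = 0.183). Averaged over all 15045 genes, mutant replicates 1, 2 and 3 stood at -0.09, -0.04 and 0.08 from the control mean. The controls lay between -0.02 and 0.02. Of 8 hepatocyte marker genes 7 were measured, with 3 higher and 4 lower in mutants. Averaged over the 7, mutant replicates 1, 2 and 3 stood at -0.11, -0.02 and 0.11 from the control mean, and the controls between -0.01 and 0.02. Albumin (Alb), 1 of the lower genes, averaged 13.90 ± 0.22 in mutants and 13.99 ± 0.04 in controls (SD, n = 3 each). Mutant replicate 1 stood apart, with correlations of 0.935 to 0.940 to the other arrays, which correlated at 0.960 to 0.973 among themselves. Averaged over 16 measured acute phase genes, mutant replicates 1, 2 and 3 stood 1.78, 0.72 and 0.47 over the mean of the controls, whose own values were -0.06 to 0.09. Over 6 measured neutrophil genes the same 3 mutants stood at 0.73, 0.11 and -0.06, and the controls between -0.17 and 0.16. Over 5 stellate cell genes they stood at -1.10, -0.41 and -0.04, against -0.20 to 0.12 in the controls. The median difference of these genes was -0.81 (-0.39 without mutant replicate 1). In mutants 4 of the 5 were lower and 1 higher, where 47.5% of all genes were higher. An unadjusted p under 0.05 in limma was reached by 2, Dcn and Reln, both lower (40.0%, against 2.2% of all genes). The mutants lay below all controls only in Dcn (20.0%, against 4.32% of all genes). Over the markers of Kupffer cells (0.51, -0.28 and -0.17), bile duct cells (0.66, -0.11 and 0.24) and sinusoidal endothelial cells (-0.01, -0.68 and 0.26) the mutants also differed among themselves. So did the controls, which ran from -0.38 to 0.21, from -0.09 to 0.11 and from -0.36 to 0.25 over the same markers. The part of these differences in the results on the spliceosome was not tested; where leaving out an array moved the difference of a core spliceosome gene or probe set named for its small p by over 1.5 times, the value without it is given.

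The core spliceosome genes were divided between higher and lower means in mutant livers, and none passed the test. Of the 36 measured genes 19 had a higher mean in mutants (52.8%, against 47.5% of all genes) and 17 a lower one. Their median difference was 0.02, beside -0.01 over all 15045 genes. None of the 36 passed the threshold in limma (adjusted p of at least 0.943, Benjamini-Hochberg over all genes), where 1 of 15045 genes (0.00665%) did. At an unadjusted p under 0.05 there was 1 gene, Prpf31, or 2.78% of the members against 4.21% of all genes (2.01% higher and 2.2% lower in mutants). In 2 of the 36 genes the groups did not overlap, which is 5.56% against a background of 9.47%. They were Prpf31 with the mutants above (5.15% of all genes) and Slu7 with the mutants below (4.32% of all genes). Both shares lie under those of all genes.

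The arrays set a limit on how large a shared or single difference could have gone unseen. The 36 standard errors ran from 0.14 (Sf3a2) to 0.74 (Snrpd2), with a median of 0.19, as for all genes (0.19). For 33 of the 36 genes (91.7%, against 89.4% of all genes) the 95% interval of the difference lay within 1 log2 unit, or 2-fold, of 0, and for 19 it lay within 1.5-fold. The exceptions to the first were Snrpd2, Snrpe and Plrg1. These are whole livers, so fewer cells of a type and less RNA per cell cannot be told apart.

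**Figure D1:**
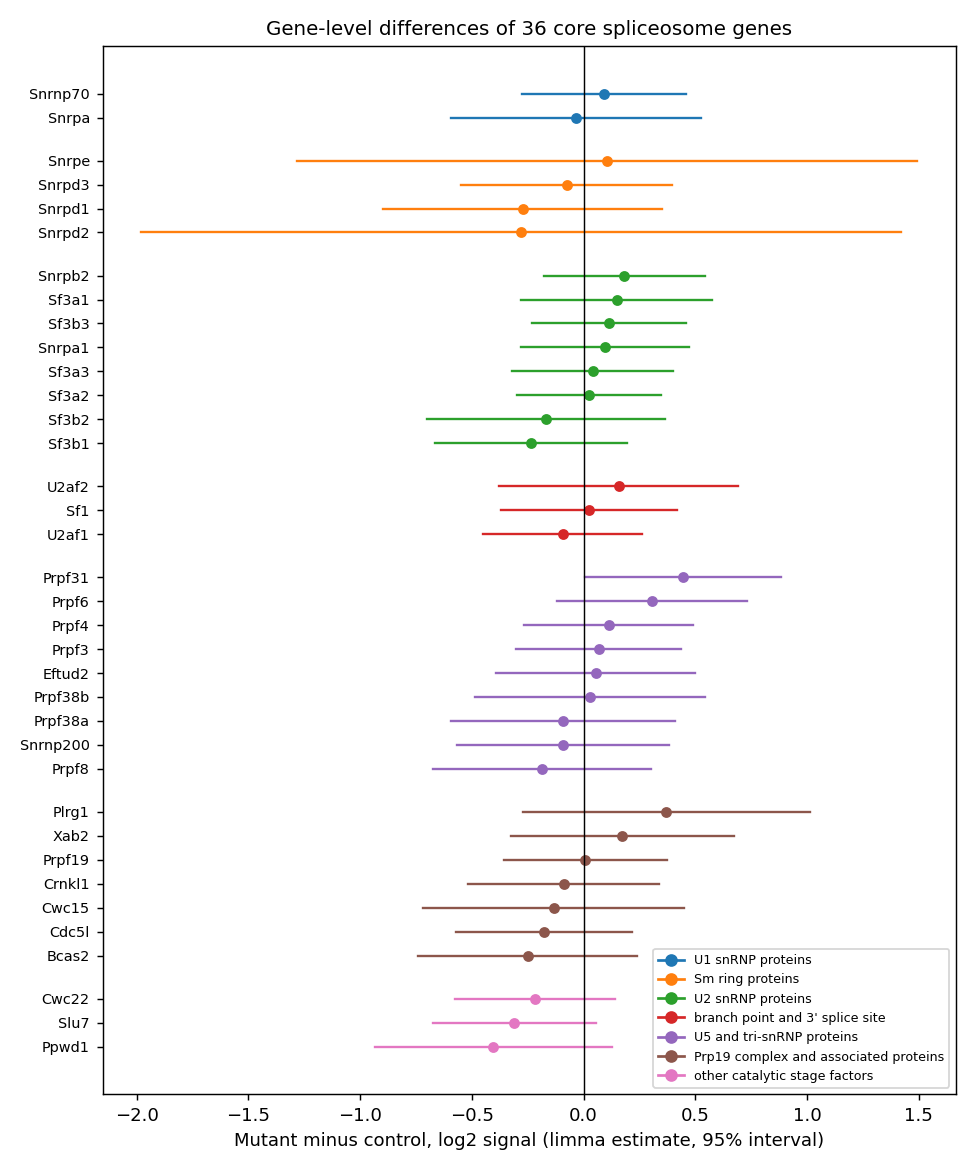
Difference in log2 signal (mutant minus control, horizontal axis) of the 36 measured core spliceosome genes, grouped and coloured by complex, with points for the limma estimate and lines for its 95% interval (3 mutant and 3 control arrays). All intervals except that of Prpf31 cross 0, and those of Snrpe and Snrpd2 are the widest.

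The U1 snRNP recognises the 5′ splice site. Snrnp70, a U1-specific protein, differed by 0.09 (SE 0.16), and Snrpa, which binds a stem loop of U1 RNA, differed by -0.03 (SE 0.24). Snrpa read 9.42, 8.48 and 8.71 in mutants, against 8.80, 9.04 and 8.87 in controls. The mutants thus lay on both sides of all controls, with replicate 1 the highest array and replicate 2 the lowest.

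The Sm proteins form the ring that encloses the snRNA in the major snRNPs except U6, and 4 of 7 were measured. Snrpd1, Snrpd2, Snrpd3 and Snrpe differed by -0.27, -0.28, -0.08 and 0.10, with no call. In all 4, mutant replicate 1 was the lowest of the 6 arrays. That array was the lowest of the 6 in 13 of the 36 members (36.1%, against 32.8% of all genes) and the highest in 6 (16.7%, against 20.6%). Together these are 19 members, or 52.8% against 53.4% of all genes, so the share over the whole list is near the background.

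Snrpe and Snrpd2 had the widest spread between mice of the 36 genes and were singled out for that after their values were seen. Snrpe read 6.93, 9.04 and 8.31 in mutants, against 9.09, 7.72 and 7.16 in controls. Mutant replicate 2 and control replicate 1 were high, and mutant replicate 1 and control replicate 3 low, so the variation ran across the genotypes. Its pooled standard deviation within groups was 1.03, larger than that of 99.5% of all genes, beside a median of 0.24 over the members.

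The spread in Snrpe was uneven along the gene. Probe set 4745057 read 7.12, 10.56 and 8.87 in mutants, against 10.26, 8.26 and 7.41 in controls, a range of 3.44 between the 6 livers. Probe sets 5174036 and 4942651 ordered the mice in nearly the same way, over ranges of 3.37 and 2.82. Probe set 4500462 ordered them differently, at 4.01, 5.28 and 6.62 in mutants against 6.37, 6.05 and 5.61 in controls, with mutant replicate 3 the highest and mutant replicates 1 and 2 the lowest. Probe set 5532903 of the same gene lay between 8.19 and 8.86, a range of 0.67. Snrpd2 had only 2 probe sets; it read 4.05, 6.76 and 6.72 in mutants, against 5.24, 7.06 and 6.07 in controls, with mutant replicate 1 and control replicate 1 low. A gene-specific difference between mice of this size was not seen in any other member, for which the pooled standard deviation reached at most 0.43 (Plrg1).

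**Figure D2:**
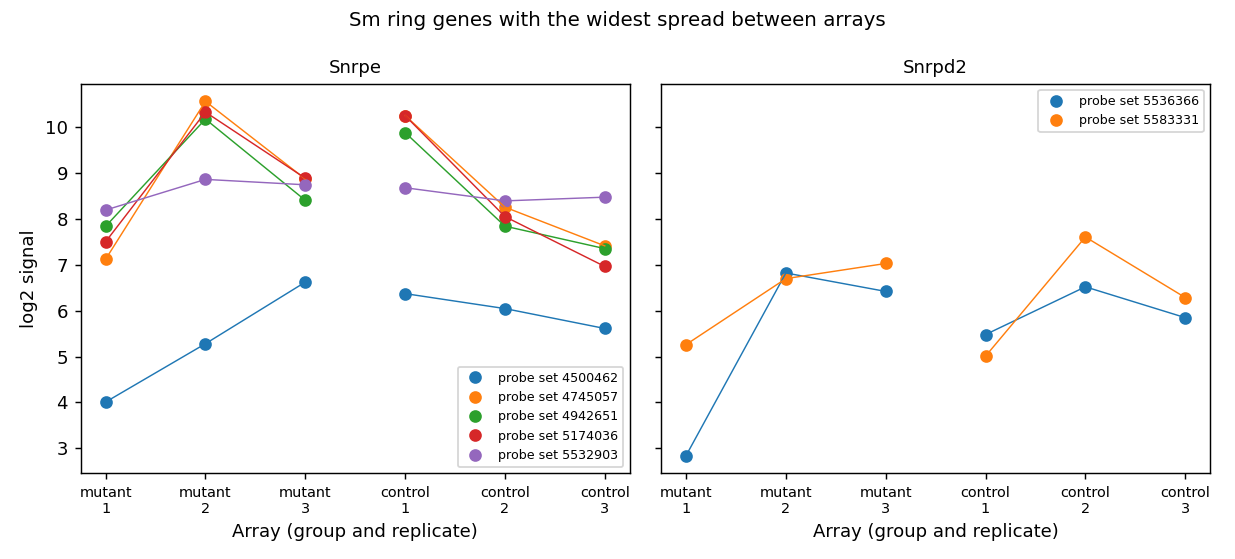
Log2 signal (vertical axis) of each probe set of Snrpe and Snrpd2 on the 3 mutant and 3 control arrays (horizontal axis), with lines joining the arrays of a group only to guide the eye. In Snrpe 3 probe sets are high in mutant replicate 2 and control replicate 1, while probe set 5532903 stays between 8.19 and 8.86.

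The U2 snRNP proteins hold the branch point. All 8 were measured; 6 had a higher and 2 a lower mean in mutants, the median difference was 0.07, and none passed. Snrpb2, which binds U2 RNA together with Snrpa1, read 8.64, 8.63 and 8.71 in mutants, against 8.71, 8.38 and 8.35 in controls. Control replicate 1 lay among the mutants, and the difference was 0.18 (SE 0.16). It was 0.30 without control replicate 1 and 0.12 without control replicate 3. Sf3b1, whose protein clamps the helix of U2 RNA and branch point, read 9.58, 10.19 and 10.05 in mutants, against 10.14, 10.25 and 10.13 in controls.

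In Sf3b1 only mutant replicate 1 lay clearly low. The gene differed by -0.23 (SE 0.19), with 23 of 24 probe sets lower in mutants. It differed by -0.05 without that array and by -0.36 without mutant replicate 2. In the SF3a trimer, which ties SF3b to the rest of U2, Sf3a1 differed by 0.15 (SE 0.19), Sf3a2 by 0.02 (SE 0.14) and Sf3a3 by 0.04 (SE 0.16). Within Sf3a3, probe set 5149929 read 6.58, 7.58 and 7.57 in mutants, against 8.02, 8.38 and 7.95 in controls, with all mutants below all controls (difference -0.87, SE 0.34, and -0.54 without mutant replicate 1). Another probe set of the gene, 5231598, singled out after its values were seen, was higher in mutants, at 8.75, 8.34 and 8.89 in mutants against 8.14, 8.15 and 7.83 in controls.

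A sequence feature that the list did not use was common upstream of the U2 genes. Of the 36 genes 32 had an upstream sequence in RefSeq (build GRCm38.p6), and the 250 bases before each start site were searched on both strands for 8 motifs. The core of the site bound by ETS factors, CCGGAAG, stood in 13 of 37 windows of the members (35.1%), against 10.3% of 15176 windows of all genes measured and 6.91% of 32851 windows in all. The motif holds a CG, and CG dinucleotides were also more frequent in the member windows, with a median of 19, against 12 in windows of all genes measured and 6 in all windows; the part of this composition in the contrast was not tested. By gene it was found in 12 of 32 members, including 6 of the 8 U2 proteins, namely Sf3a1, Sf3a2, Sf3a3, Sf3b2, Sf3b3 and Snrpb2. The other genes with it were Prpf3, Snrnp200, Prpf19, Cwc15, Xab2 and Ppwd1. No Sm ring, U1 or branch point gene with a window held it. The count by window includes overlapping windows of Sf3b2 that hold the same site. The remaining motifs were CCAAT (48.6% of member windows, against 34.9% of windows of all genes measured), the GC box GGGCGG (54.1% against 49.5%), TATAAA (5.41% against 9.15%), TGACGTCA (8.11% against 2.1%), CACGTG (10.8% against 7.48%), the NRF1 palindrome (2.7% against 1.27%) and AAGATGGCG (0% against 0.824%). None of these 8 contains another, and a match is a description of the letters and not a sign of binding. The sites of the SF3a trimer are shown because all of its genes hold one, 5′ to 3′ on the gene's strand, with the motif in capitals (CTTCCGG is the same motif on the opposite strand).
Sf3a1: ggcgagagggcgggaCCGGAAG
Sf3a2: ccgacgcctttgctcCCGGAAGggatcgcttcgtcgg
Sf3a3: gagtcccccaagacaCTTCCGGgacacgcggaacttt
These lie at chr11:4160332-4160353, chr10:80798644-80798680 and chr4:124714756-124714792, all on the plus strand.

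SF1 and the U2AF dimer find the branch point and the 3′ splice site before U2 arrives. Sf1 differed by 0.03 (SE 0.17), U2af1 by -0.09 (SE 0.15) and U2af2 by 0.16 (SE 0.23). U2af2 rested on 3 probe sets and read 7.82, 7.66 and 7.86 in mutants, against 7.14, 8.07 and 7.65 in controls. The mutants lay inside the range of the controls.

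The U5 and tri-snRNP proteins include the catalytic scaffold Prpf8, the helicase Snrnp200 that unwinds U4 from U6, and the GTPase Eftud2. Of the 9 genes 6 had a higher and 3 a lower mean in mutants, none passed, and the median difference was 0.06. Prpf8, Snrnp200 and Eftud2 differed by -0.19 (SE 0.21), -0.09 (SE 0.21) and 0.06 (SE 0.19). Prpf6, which bridges U5 and U4/U6, read 9.12, 9.02 and 9.35 in mutants, against 9.06, 8.96 and 8.55 in controls. Its difference was 0.31 (SE 0.19), with 23 of 24 probe sets higher in mutants, and control replicate 3 was the low array, without which the difference was 0.15.

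Prpf31, which holds U4/U6 in the tri-snRNP and is mutated in a form of human retinal degeneration, had the smallest p of the 36 genes. It read 7.81, 7.44 and 7.52 in mutants, against 7.30, 7.31 and 6.82 in controls, with no overlap. The difference was 0.44 (SE 0.19), or 1.36-fold (limma adjusted p = 0.943 over all genes; exact two-sided permutation p = 0.1, the smallest that 3 against 3 arrays allow). The difference was spread over the gene: 13 of its 14 probe sets were higher in mutants, and they ranged from -0.10 to 0.82.

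In 3 of those 14 probe sets the mutants lay above all controls, which 4.01% of all probe sets did, in a gene named for its small p. Probe set 5025618 read 6.53, 6.30 and 6.49 in mutants, against 6.00, 5.62 and 5.82 in controls, and probe set 4765317 read 6.66, 6.83 and 6.51 in mutants, against 6.41, 5.90 and 5.78 in controls. Probe sets of 1 gene share the same mice and are not separate comparisons. The gene's difference ran from 0.28 (without control replicate 3) to 0.53 when 1 array at a time was left out, and its unadjusted p was under 0.05 only without control replicate 1, not without any of the other 5 arrays.

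**Figure D3:**
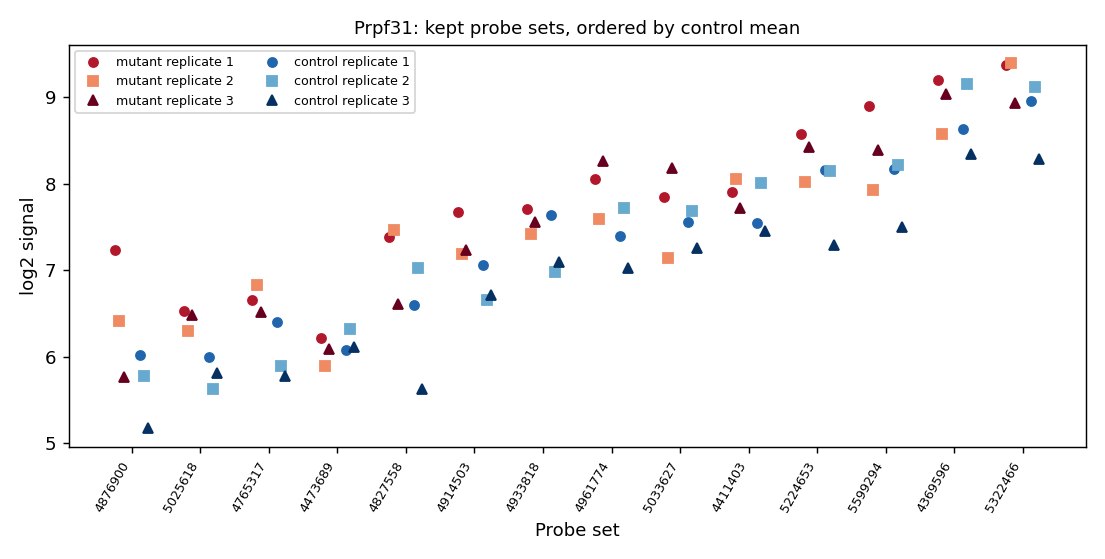
Log2 signal (vertical axis) of the 14 kept probe sets of Prpf31, ordered by control mean, with 1 point per array (mutant replicates in red tones on the left of each position, control replicates in blue tones on the right). In 13 of 14 probe sets the mutant mean is higher, by at most 0.82.

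The other tri-snRNP genes were close to 0 at the gene level: Prpf4 at 0.11, Prpf3 at 0.07, Prpf38b at 0.03 and Prpf38a at -0.09. Prpf3 and Prpf4 belong to U4/U6, and Prpf38a enters before activation. Single probe sets stood out in Prpf3 and Prpf38a, both near the signal minimum. Probe set 4438853 of Prpf3 read 3.58, 4.29 and 4.09 in mutants, against 2.63, 3.29 and 3.23 in controls, and probe set 5142318 of Prpf38a read 3.96, 4.17 and 4.94 in mutants, against 3.99, 2.85 and 3.51 in controls.

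The Prp19 complex activates the spliceosome and stabilises U5 and U6 in it. Its 7 genes had a median difference of -0.09, 3 of them with a higher and 4 with a lower mean in mutants, and there was no call. Prpf19 itself, a ubiquitin ligase, differed by 0.01 (SE 0.16). Plrg1, a WD-repeat protein of its core, read 9.85, 9.87 and 9.49 in mutants, against 9.96, 9.31 and 8.82 in controls. Control replicate 1 was the highest of the 6 livers and the other controls the lowest, and the difference was 0.37 (SE 0.28), with 15 of 16 probe sets higher in mutants. It was 0.67 without control replicate 1 and 0.10 without control replicate 3.

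Bcas2 and Cdc5l, partners of Prp19, had lower means in mutants, with overlapping groups. Bcas2 read 7.70, 7.86 and 8.25 in mutants, against 7.85, 8.28 and 8.43 in controls, a difference of -0.25 (SE 0.21). It was -0.13 without mutant replicate 1 or control replicate 3, -0.42 without control replicate 1 and -0.41 without mutant replicate 3. Cdc5l read 6.72, 7.19 and 7.14 in mutants, against 7.22, 7.13 and 7.24 in controls. Its difference of -0.18 (SE 0.17) came to -0.03 without mutant replicate 1, the only array that stood clear of the rest. Xab2, Crnkl1 and Cwc15 differed by 0.17, -0.09 and -0.13.

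The 3 late factors, Slu7, Cwc22 and Ppwd1, all had a lower mean in mutants, and in 2 of them a single probe set lay over 3 log2 units below that of controls. Cwc22, which loads the exon junction complex onto spliced RNA, read 7.24, 7.15 and 7.30 in mutants, against 7.23, 7.57 and 7.54 in controls. The groups overlapped through control replicate 1, and the difference was -0.22 (SE 0.16), or -0.33 without that array.

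Ppwd1 encodes a cyclophilin-type prolyl isomerase with WD repeats that is found in active spliceosomes. Its probe set 4969413 read 3.06, 3.12 and 4.48 in mutants, against 6.59, 7.76 and 7.39 in controls. The mutants lay far below all controls and mutant replicates 1 and 2 close to the signal minimum of 3, so background limits the size of the difference, -3.69 (SE 0.46) or 12.9-fold. The other 9 probe sets of Ppwd1 differed by -0.50 to 0.15, with 5 higher and 4 lower in mutants, and in none of them were the groups apart.

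Without probe set 4969413 the Ppwd1 gene value differed by -0.04 (SE 0.23), and with it by -0.40 (SE 0.23). With it the gene read 6.87, 7.61 and 7.70 in mutants, against 7.83, 7.87 and 7.69 in controls, with mutant replicate 1 low, and without that array the gene differed by -0.14. Exon usage compares the difference at each probe set with that of the gene's other probe sets. In limma's diffSplice F-test for it Ppwd1 passed (adjusted p = 2.02e-04 over 14310 genes, rank 12). Without this probe set, picked as the most deviating one in the same fit, Ppwd1 did not pass the F-test (unadjusted p = 0.970).

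Slu7, which positions the 3′ splice site for exon joining, likewise had a single probe set far below the others. Its probe set 4714947 read 1.88, 4.76 and 2.63 in mutants, against 6.01, 6.73 and 5.95 in controls. All mutants lay below all controls, replicates 1 and 3 were under the signal minimum, and replicate 2 lay between. The difference was -3.14 (SE 0.67) or 8.82-fold, again limited by the background.

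The other 17 probe sets of Slu7 differed by -0.85 to 0.34, with 4 higher and 13 lower in mutants. In 2 of the 17, 5434798 and 5461134, the mutants lay below all controls (differences -0.38 and -0.43), which 4.44% of all probe sets did. The lowest of the 17, 5465222, read 6.38, 7.29 and 7.57 in mutants, against 7.56, 8.11 and 8.11 in controls, and overlapped. The Slu7 gene value read 7.73, 8.05 and 8.12 in mutants, against 8.22, 8.32 and 8.28 in controls, with no overlap. It differed by -0.31 (SE 0.16) with probe set 4714947, by -0.14 (SE 0.15) without it, and by -0.19 with all probe sets but without mutant replicate 1. Slu7 passed the exon usage test (adjusted p = 3.35e-04, rank 13), and not without probe set 4714947 (unadjusted p = 0.464).

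**Figure D4:**
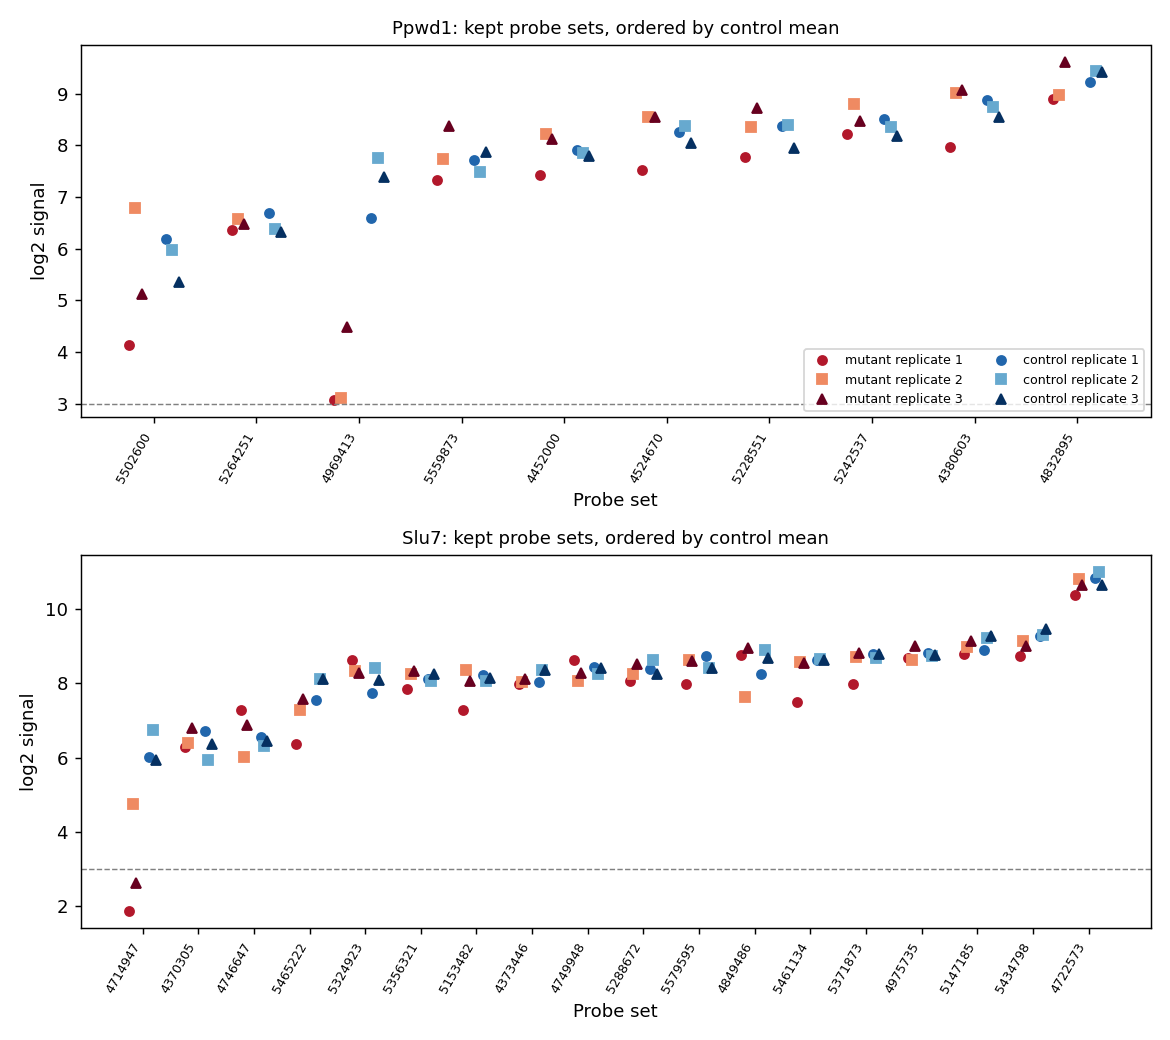
Log2 signal (vertical axis) of all kept probe sets of Ppwd1 (10, top) and Slu7 (18, bottom), ordered by control mean, with 1 point per array (mutants in red tones on the left, controls in blue tones on the right) and the signal minimum of 3 as a dashed line. Probe sets 4969413 of Ppwd1 and 4714947 of Slu7 are low in the 3 mutants, while the other probe sets differ by at most 0.85.

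Of 35 members tested for exon usage, Ppwd1 and Slu7 were the only ones with an adjusted p under 0.05, or 5.71% of the members against 0.21% of all genes (30 of 14310). At an unadjusted p under 0.05 they were also the only ones, against 4% of all genes. That test uses 1 variance for all probe sets in a gene. An alternative was limma on each probe set's deviation from its gene's mean, with a moderated variance per probe set. Its p-values were combined per gene by the Simes rule, so the test changed along with the variance. By this alternative neither gene passed (adjusted p = 0.735 for Ppwd1 and 1 for Slu7), nor did any other gene. Both kept an unadjusted p under 0.05 by it. As single probe sets in limma, 4969413 and 4714947 had adjusted p = 0.380 and 0.994 over all probe sets. Both exon usage calls were lost without control replicate 2 (adjusted p = 0.162 and 0.413) or control replicate 3 (0.0768 and 0.125), and that of Slu7 also without mutant replicate 3 (0.0906). With 1 array left out at a time, the difference ran from -4.16 to -3.44 for the probe set of Ppwd1 and from -3.98 to -2.53 for that of Slu7.

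Ppwd1 lies on chromosome 13, which held 6 of the 30 calls for exon usage (1.17% of its tested genes), and Slu7 on chromosome 11, which held 5 (0.416%). The part of chromosomes 13 and 11 in the result was not tested. In the order of measured genes, the 5 neighbours on each side of Ppwd1 and of Slu7 all had an exon usage adjusted p = 1. Their gene values did not pass either. The largest differences were those of Cenpk beside Ppwd1 (-0.56, SE 0.25) and Pttg1 beside Slu7 (-0.99, SE 0.46), and the smallest unadjusted p was that of Gabra6 beside Slu7 (0.39, SE 0.15). The position of either probe set within its gene was not analysed here.

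The region before the start site of Ppwd1 is shown because Ppwd1 holds the probe set with the largest difference of all members, while its other 9 probe sets lay within 0.50 of 0. It spans 250 bases at chr13:104228845-104229094 on the minus strand (GRCm38.p6), with an ETS core site and CCAAT boxes, read on either strand, in capitals.
Ppwd1: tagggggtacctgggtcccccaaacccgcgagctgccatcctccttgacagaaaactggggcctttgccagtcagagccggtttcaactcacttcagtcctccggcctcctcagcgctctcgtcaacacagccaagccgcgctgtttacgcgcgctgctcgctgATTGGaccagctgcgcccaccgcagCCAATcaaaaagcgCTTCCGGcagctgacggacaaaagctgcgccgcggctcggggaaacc

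Over all 571 probe sets of the members, 286 were higher and 285 lower in mutants, and none passed in limma, as for all 191663 (0%). An unadjusted p under 0.05 was reached by 11 (1.93%, against 4.07% of all probe sets). Of these 5 were higher (0.876%, against 1.9%) and 6 lower in mutants (1.05%, against 2.18%). In 31 the groups did not overlap (5.43%, against 8.45%), with the mutants above in 14 (2.45%, against 4.01%) and below in 17 (2.98%, against 4.44%). Leaving out Ppwd1 4969413 and Slu7 4714947, every probe set lay between -0.95 and 0.94. Differences below -3 were thus found in 2 of 571 probe sets (0.35%) and in 38 of all 191663 (0.0198%); these are the probe sets already described, chosen by their values, and no test was made of this share.

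**Figure D5:**
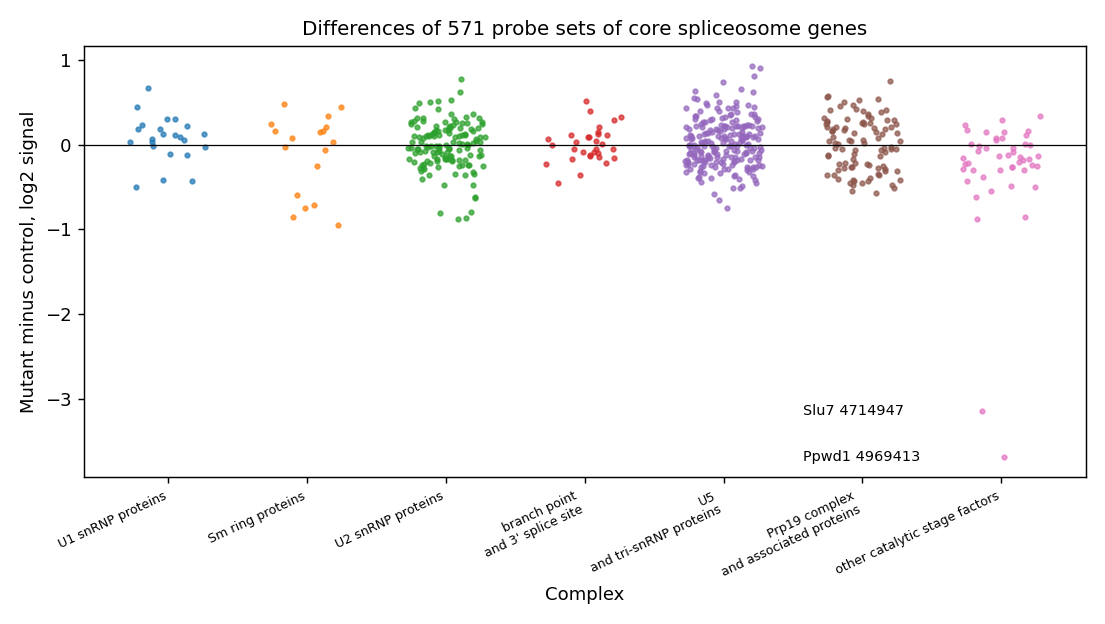
Difference in log2 signal (mutant minus control, vertical axis) of each of the 571 kept probe sets of the members, with 1 point per probe set spread sideways at random within its complex (horizontal axis, coloured by complex). All points lie within 1 unit of 0 except the labelled probe sets of Slu7 and Ppwd1.

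The next 3 genes by exon usage were Snrpd3, Sf3a3 and Snrpa1, each with an adjusted p = 1. The most deviating probe set of Snrpd3, 5350207, read 3.36, 4.64 and 5.61 in mutants, against 5.41, 5.82 and 5.21 in controls, so mutant replicate 3 lay among the controls. That of Snrpa1, 4696506, read 6.56, 7.84 and 8.46 in mutants, against 7.84, 8.33 and 8.52 in controls. In Snrpd1, probe set 4882831 read 5.19, 6.01 and 6.21 in mutants, against 6.27, 6.85 and 6.84 in controls, with no overlap and a difference of -0.85 (SE 0.34), and -0.55 without mutant replicate 1.

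The 6 probe sets left out for low signal were spread over Cwc22, U2af1, Prpf38a, Sf3b1 and Snrpe. The highest of their group means was 2.88, for U2af1 4445767 in controls (2.21 in mutants). Both probe sets with differences below -3 passed the minimum in both groups, with mutant means of 3.55 in Ppwd1 and 3.09 in Slu7.

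Further spliceosome genes outside the list gave no call either. Of 42 other spliceosome proteins 36 were measured, with 13 higher and 23 lower (median -0.06); Luc7l3, a U1-associated protein, had the smallest p at -0.40 (SE 0.21), and differed by -0.25 without mutant replicate 1. Of 11 helicases that drive splicing 5 were higher and 6 lower (median -0.05). Ddx39b had the smallest p of these helicases, at 0.26 (SE 0.19), with overlapping groups. Ddx5 read 10.84, 10.75 and 10.80 in mutants, against 11.03, 10.98 and 10.95 in controls, with no overlap at a difference of -0.19 (SE 0.13). It was the only 1 of the 11 with the mutants below all controls, which 4.32% of all genes had. Of 15 proteins of snRNP assembly 13 were measured, with 8 higher and 5 lower (median 0.05). In 1 of the 13, Wdr77, the mutants lay above all controls (difference 0.23, SE 0.14), which they did in 5.15% of all genes. Of 7 Lsm proteins, which ring U6 RNA, 5 were measured (3 higher), and of 8 exon junction proteins 5 (3 higher).

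Proteins of the minor spliceosome, which removes a rare class of introns, had mostly lower means in mutants. Of 11 genes 10 were measured, with 3 higher (47.5% of all genes were) and 7 lower, a median of -0.18 and none passing in limma. At an unadjusted p under 0.05 there were 2, both lower (20.0%, against 2.2% of all genes), and in 4 of the 10 the mutants lay below all controls (40.0%, against 4.32%). Without mutant replicate 1 the median was -0.15, again with 7 lower. The count below all controls stayed at 4, but leaving out a mutant array cannot reduce that count. Rbm41 read 6.05, 6.45 and 6.50 in mutants, against 6.74, 6.82 and 6.79 in controls (difference -0.45, SE 0.17). Zcrb1 read 8.94, 9.29 and 9.21 in mutants, against 9.46, 9.54 and 9.56 in controls (difference -0.38, SE 0.15). Averaged over the 10 genes the mutants lay at -0.37, -0.13 and -0.06 from the control mean, and the controls between -0.09 and 0.07, so mutant replicate 3 lay among the controls. The stellate cell genes ran in the same order over the mutants, at -1.10, -0.41 and -0.04. The mean over all genes did so too, at -0.09, -0.04 and 0.08. The part of either in this was not tested.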

How the data were processed

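The deposited values are log2 signals, 1 per probe set and array, for 204531 probe sets on 6 arrays; per the submitters' processing notes, Affymetrix Expression Console 1.1, RMA, Partek 6.4 and mm9 were used by the authors, in unstated roles. RMA normalizes arrays to each other and compresses differences of dim probe sets. Symbols came from the platform annotation, updated through RefSeq synonyms: 185264 probe sets had 1 symbol, 3488 several and 15779 none. Probe sets with a group mean of 3 or more were kept; genes needed at least 2 for the gene value and 3 for exon usage. Groups were compared in limma 3.58.1 (R 4.3.3) as mutant minus control; p-values were adjusted by Benjamini-Hochberg across every feature tested, with a threshold of 0.05; exact permutation tests used scipy 1.17.1. Precision is limited by 3 arrays per group. The p-values of genes and of single probe sets measure the spread between these mice. Those of the exon usage F-test rest on 1 variance pooled over the probe sets of a gene, which share the same mice. The steps were tested on simulated data. Levels were not compared between genes.

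The members and lists were chosen with earlier results of these data known. Named were Dhx32, the 10 members of smallest gene-level p, the 8 member probe sets and 5 exon usage genes of smallest p, and up to 3 genes of each further list. Alternatives were other signal minimums, quantile normalization, median centring, a replicate block, array weights, a trend and gene medians. Others were another exon usage test with own variances of probe sets, and leaving out arrays. The values of other spliceosome genes and of the stellate and minor spliceosome lists without mutant replicate 1 were added after seeing the data.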

Additional observations from a re-analysis of the deposited data

How the results depend on the processing

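No core spliceosome gene and no probe set of one was called under any alternative tried. Their median difference stayed between -0.06 and 0.06, within the spread between arrays. The 2 exon usage calls among them held with both other signal minimums, quantile normalization, median centring and the replicate block; the count was 0 with own variances and 0 to 2 without single arrays. Members at an unadjusted p under 0.05 numbered 0 with array weights and 0 to 2 without single arrays, their probe sets 3 to 19 and their exon usage genes 2 to 5. Ppwd1 turned to 0.027 when the gene median of probe sets was used, which a single low probe set hardly moves. Dhx32 passed with quantile normalization (-1.88, adjusted p = 0.0412), median centring (-1.87, 0.0339) and array weights (-1.98, 0.0273). Over all genes, gene-level calls (1) came to 0 with no signal minimum or the replicate block, 2 with quantile normalization, median centring or array weights, and 0 to 3 without single arrays. Probe set calls (0) came to 2 with a signal minimum of 5, 7 with a trend, 3 with array weights and 0 to 5 without single arrays. Exon usage calls (30) came to 18 with the replicate block, 0 with own variances and 13 to 58 without single arrays. The causes were not tested. Deviations of same-numbered arrays correlated at 0.10, -0.11 and 0.18, within the -0.30 to 0.21 of the other pairs, so no pairing by replicate number was seen. With 3 arrays per group these correlations cannot exclude one. With 3 arrays per group, dim probe sets near the minimum of 3 give only a bound on a loss.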
